A study of Zea mays with 24 samples.

Results

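The genes described here separated 1 maize cytoline from the other two both in seedlings kept under control conditions and in seedlings exposed to heat. They were selected on measured values. A probe was taken where the mean deposited log2 value of 1 cytoline differed by at least 0.8 from that of each of the other two, with the same sign in the control and in the stress group, and where its spots were flagged well above background by the scanner software on all 8 arrays of at least 1 cytoline. Of the 133671 probes on the array, 46210 probes of 34257 genes passed the filter on dim probes, and 273 of these, belonging to 239 genes, met the rule. Since the differences between cytolines chose the members, these differences are described below without a test.

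The study used single-colour oligonucleotide arrays on 3 lines that share 1 nuclear background and differ in cytoplasm. TC243 donated the nucleus, which repeated crosses with its pollen brought into the cytoplasm of lines TC221 (giving cytTC221) and T248 (giving cytT248). The labels write the latter cytoline as cytTC248, and TC221 and T248 themselves were not analysed here. Each of the 6 groups, TC243 control, TC243 stress, cytTC221 control, cytTC221 stress, cytT248 control and cytT248 stress, held 4 arrays. Days had 16 h of light and nights 8 h, at 26 °C and 20 °C respectively. Control seedlings were harvested after 21 days, and stress seedlings after 20 days and a further 24 h at 40 °C with unchanged lighting. RNA came from leaves and stems of 3-leaf seedlings, harvested from 3 seedlings per line. The sources do not say whether the 4 arrays of a group came from separate plantings, so p-values measure the spread between these arrays, which may be technical. Comparisons of bulk RNA cannot tell fewer cells of a type from less RNA per cell.

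Mitochondria and plastids carry their own small genomes, which maize inherits through the egg, while most of the proteins that work inside these organelles are encoded in the nucleus and imported. A backcross programme replaces the nuclear chromosomes step by step and leaves the maternal cytoplasm in place. Cytolines are therefore used to ask how a nucleus behaves in different cytoplasms, and heat is a condition in which organelle function and nuclear expression are both known to change.

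Between 36.9% and 43.1% of the spots on an array were well above background, and no spot was saturated. Of the genes whose annotated symbols name leaf proteins (Rubisco small subunit, phosphoenolpyruvate carboxylase, chlorophyll a/b-binding proteins and pyruvate orthophosphate dikinase), 12 of 16 had a probe well above background on all 24 arrays, against 1 of 28 genes with symbols of zeins, the storage proteins of the seed. The arrays lay on 6 slides of 4. Of these, 2 held control arrays of all 3 cytolines and 2 others stress arrays of all 3. Within those slides, 270 of the 273 member probes kept their sign in every pair of cytolines, and 216 kept a difference of at least 0.8. The same array values chose the members, so the rule fixes most of these counts and nothing is read from them.

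Most markers belonged to cytTC221. This cytoline was higher than the other two at 92 probes of 82 genes and lower at 63 probes of 54 genes. TC243 was higher at 48 probes of 42 genes and lower at 27 probes of 27 genes, and cytT248 was higher at 24 probes of 19 genes and lower at 15 genes, read by 19 probes. Many more probes set a cytoline apart in a single treatment. In cytTC221, 588 probes were higher in control and 1416 in stress, and the 92 shared probes were 15.6% of the former and 6.50% of the latter. Of the probes lower in this cytoline, 180 were apart in control, 1269 in stress and 63 in both. In TC243 the markers made up 35.3% of the 136 probes that were higher in control and 17.7% of the 271 that were higher in stress. Among lower probes of TC243 the counts were 122 in control and 489 in stress. In cytT248, 69 probes were higher in control and 110 in stress. The order was different among the lower probes of cytT248, where 184 were apart in control and 73 in stress.

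At 266 of the 273 probes (97.4%), no array of the marking cytoline overlapped any array of the other two in either treatment, where 6.29% of all probes that passed the filter showed such a separation for some cytoline. The rule fixes most of that count and nothing is read from it. The smallest of a member's 4 differences had a median of 1.24 on the log2 scale. It was widest in GRMZM2G141923 (5.51, higher in cytTC221), and across the 6 combinations of cytoline and direction the widest case was narrowest for genes lower in TC243 (2.66). Set against the mean of the other two, the widest difference was 5.51 in control and 6.36 in stress. The members just inside the limit were a probe of AC214771.3_FGT003 at 0.80 and a probe of GRMZM5G821828 at 0.8025, both higher in cytTC221. Just outside it lay a probe of GRMZM2G336908 at 0.7988, lower in TC243, and a probe of GRMZM2G157683 at 0.7975, higher in cytT248, a gene with another probe just inside at 0.8025.

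The difference between the other two cytolines at these probes had a median size of 0.11 in control and 0.17 in stress. Over all probes that passed the filter, the median size for a pair of cytolines was 0.1275 to 0.1375 in control and 0.145 to 0.305 in stress. At the members the difference reached 0.8 at 13 probes in control and at 30 in stress, with no share over all probes counted. Of the latter, 9 were among the 19 probes lower in cytT248 and 9 among the 27 lower in TC243.

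Some markers were not well above background on their low side, which bounds the level and does not show absence. No share over all probes was counted for this, so nothing is read from the count. At 58 of the 273 probes, no array on the low side (the marking cytoline where it was lower, both others where it was higher) was well above background in either treatment, and at 113 probes it was well above background on every array. Where a group was not well above background, its level is only a bound, and differences are then given as at least N-fold. For these folds, after background correction, the dim group was given on each array its own signal or, if that was lower, the dimmest signal among probes well above background.

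The widest separation was that of GRMZM2G141923, a marker of cytTC221. Its deposited log2 values were 13.77, 13.31, 13.80 and 13.37 in cytTC221 control and 13.29, 12.66, 13.24 and 12.90 in cytTC221 stress. In TC243 it read 8.01, 8.32, 7.96 and 7.91 in control and 6.84, 6.57, 6.53 and 6.47 in stress, and cytT248 read 8.11, 8.11, 7.99 and 7.98 in control and 6.67, 6.62, 6.93 and 6.70 in stress. Every cytTC221 array lay more than 4 log2 units above every array of the other two. The background-corrected level in cytTC221 control was 44.7 times that in TC243 control at this probe. The other probe of the gene that passed the filter did not show it, with a mean difference of 0.10 and no common sign. In stress only 1 TC243 array and 3 cytT248 arrays were well above background. The heat change in cytTC221 was -0.41 ± 0.14 (SE) on the log2 scale (limma adjusted p = 0.0111).

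GRMZM2G342226 and GRMZM2G351382 were well above background in cytTC221 alone. GRMZM2G342226 gave 11.02, 11.34, 11.30 and 10.98 in cytTC221 control and 10.81, 10.68, 10.81 and 10.79 in cytTC221 stress, whereas the 16 arrays of the other two lay between 6.17 and 6.40 and none was well above background. Its level in cytTC221 was at least 34.2-fold that of TC243 in control and at least 20.2-fold in stress. GRMZM2G351382 gave 10.26, 10.50, 10.53 and 10.39 in cytTC221 control and 10.33, 10.35, 10.53 and 10.23 in stress, and again no array of TC243 or cytT248 was well above background. The corresponding bounds against TC243 were 20.0-fold in control and 14.5-fold in stress. Neither gene has a descriptive name in the annotation used.

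Of the higher markers of cytTC221 that carry a name, ypt1 (GRMZM2G086971) encodes a small GTP-binding protein of the Rab type, a family that directs vesicle traffic. It read 8.89, 9.09, 9.11 and 8.83 in cytTC221 control and 8.79, 8.63, 8.81 and 8.67 in cytTC221 stress. The arrays of TC243 and cytT248 lay between 6.32 and 6.63, with 1 of these 16 arrays well above background. In control the level in cytTC221 at this probe was at least 6.86-fold that in TC243. It was the only member among 6 probes of the gene that passed the filter. The other 5 had a median difference of 0.02 in the member's direction and none kept its sign in all 4 differences, and the identifier matches more than 1 RefSeq entry.

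The reverse pattern was clearest in GRMZM2G100462, which was lower in cytTC221 at each of the 3 probes that passed the filter (2 further probes did not pass). At the probe with the widest separation, cytTC221 gave 6.44, 6.40, 6.39 and 6.21 in control and 6.22, 6.32, 6.27 and 6.45 in stress, none of them well above background. TC243 gave 10.61, 10.66, 10.68 and 10.61 in control and 11.51, 11.36, 11.32 and 11.50 in stress, and cytT248 gave 11.04, 11.15, 11.06 and 11.13 in control and 10.99, 11.12, 11.24 and 11.02 in stress. The gene was at least 26.5-fold higher in TC243 than in cytTC221 in control and at least 38.3-fold higher in stress. It rose with heat in TC243 by 0.81 on the log2 scale (limma adjusted p = 6.88e-10).

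GRMZM2G126858 came next, with a smallest difference of 3.91. It read 10.59, 10.80, 10.63 and 10.61 in TC243 control and 6.74, 6.76, 6.70 and 6.54 in cytTC221 control, and in stress 12.04, 11.78, 11.76 and 11.72 in TC243 and 6.91, 6.69, 6.91 and 6.95 in cytTC221. The third, GRMZM2G138809, had TC243 control arrays at 10.11, 9.96, 9.90 and 10.01 and stress arrays at 11.36, 11.77, 11.71 and 11.59, while the 8 cytTC221 arrays lay between 6.26 and 6.39. In control its level was at least 17.4-fold higher in TC243 than in cytTC221 and in stress at least 44.4-fold higher. It rose with heat in TC243 (log2 change 1.64) and in cytT248 (log2 change 1.58, limma adjusted p = 1.95e-13 and 4.40e-13). The arrays of cytTC221 were not well above background in either treatment, so a heat response there was not measurable.

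Among the named genes lower in cytTC221 were orp1 (GRMZM2G169593), which encodes a tryptophan synthase beta subunit, and mir2 (GRMZM2G150256), which encodes a cysteine protease of the maize insect resistance family. orp1 read 7.66, 7.76, 7.90 and 7.71 in cytTC221 control, against 9.67, 9.42, 9.58 and 9.32 in TC243 control and 9.57, 9.48, 9.44 and 9.41 in cytT248 control. In stress it read 6.97, 7.25, 6.96 and 6.92 in cytTC221, 8.41, 8.20, 8.34 and 8.28 in TC243 and 8.00, 8.00, 8.10 and 7.83 in cytT248. It fell with heat in the 3 cytolines, by 1.17 (TC243), 0.69 (cytTC221) and 1.40 (cytT248). Of the 3 orp1 probes that passed the filter, 2 were members. The other differed by 0.345 in the member's direction without a common sign. A further named gene lower in cytTC221, geb1 (GRMZM2G065585), encodes a beta-1,3-glucanase, an enzyme of pathogen defence. It read 9.15, 9.32, 9.20 and 9.06 in cytTC221 control and 7.12, 7.57, 7.40 and 7.20 in cytTC221 stress, where TC243 stress read 9.71, 9.74, 9.54 and 9.66.

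The leading marker of TC243 was GRMZM2G121115, listed as TAZ3 in the annotation. Its values were 10.51, 10.47, 10.49 and 10.58 in TC243 control and 9.68, 9.65, 9.62 and 9.47 in TC243 stress. In cytTC221 it gave 6.50, 6.52, 6.61 and 6.44 in control and 6.65, 6.68, 6.70 and 6.71 in stress, and in cytT248 6.53, 6.56, 6.49 and 6.48 in control and 6.70, 6.55, 6.56 and 6.69 in stress. Of these 16 arrays of the other two, 1 was well above background. TC243 control was at least 22.7-fold above cytTC221 and at least 24.4-fold above cytT248. With heat the gene fell in TC243 by 0.92 on the log2 scale (limma adjusted p = 1.71e-09).

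The aquaporin gene PIP2-4 (GRMZM2G154628), which encodes a plasma membrane water channel, was also higher in TC243. It read 11.37, 11.31, 11.20 and 11.23 in TC243 control, 8.95, 8.75, 8.68 and 8.86 in cytTC221 control and 8.55, 8.60, 8.77 and 8.87 in cytT248 control. After heat it read 10.41, 10.60, 10.59 and 10.65 in TC243, 7.04, 7.14, 7.22 and 7.06 in cytTC221 and 7.01, 6.88, 6.96 and 6.94 in cytT248. The separation from both others was 2.52 in control and 3.53 in stress. PIP2-4 fell in the 3 cytolines, by 0.71 (TC243), 1.75 (cytTC221) and 1.53 (cytT248), each with an SE of 0.10, and these falls differed between cytolines (limma F-test, adjusted p = 4.98e-06).

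The dehydrin gene dehydrin3 (GRMZM2G373522), of a protein family that accumulates in drying and chilled tissue, was a TC243 marker close to the limit. Its values were 9.70, 9.76, 9.77 and 9.86 in TC243 control, 8.69, 8.81, 8.82 and 8.78 in cytTC221 control and 9.02, 8.88, 9.01 and 8.96 in cytT248 control. In stress they were 13.81, 14.05, 13.93 and 13.85 in TC243, 12.49, 12.52, 12.35 and 12.65 in cytTC221 and 12.47, 12.46, 12.51 and 12.66 in cytT248. The gene rose strongly in every cytoline, by 4.23, 3.81 and 3.68 on the log2 scale (SE 0.08 each), and TC243 remained the highest in both treatments.

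GRMZM2G020556 led the genes lower in TC243. The 8 TC243 arrays lay between 6.30 and 6.86, none well above background. In cytTC221 the values were 8.78, 9.65, 9.73 and 9.38 in control and 9.61, 9.64, 9.71 and 9.61 in stress, and in cytT248 8.86, 9.49, 9.38 and 9.44 in control and 9.32, 9.12, 9.20 and 9.22 in stress. The gene was at least 8.15-fold higher in cytTC221 and at least 8.01-fold higher in cytT248 than in TC243 in control. The named gene of this group, RSZ28 (GRMZM2G027105), encodes a splicing factor of the serine/arginine-rich type. It was not well above background in TC243 control (6.48, 6.34, 6.40 and 6.32), where cytTC221 gave 7.59, 7.55, 7.61 and 7.50 and cytT248 gave 7.64, 7.52, 7.48 and 7.60. In stress it read 7.65, 7.65, 7.75 and 7.66 in TC243, 9.81, 9.74, 9.59 and 9.93 in cytTC221 and 8.75, 8.97, 9.08 and 8.77 in cytT248.

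cytT248 had the fewest markers. GRMZM2G004847 stood highest, at 11.75, 11.80, 11.65 and 11.61 in cytT248 control and 11.93, 12.00, 11.83 and 11.85 in cytT248 stress. TC243 gave 7.40, 7.43, 7.41 and 7.51 in control and 7.69, 7.85, 7.84 and 7.72 in stress, and cytTC221 gave 7.44, 7.52, 7.43 and 7.53 in control and 8.39, 8.60, 7.77 and 8.63 in stress. All of these arrays were well above background, and cytT248 control was 22.2 times TC243 control at this probe. The other probe of GRMZM2G004847 that passed the filter ran the opposite way, with a mean difference of -0.59. In the reverse direction, GRMZM2G179528 was lower in cytT248 at 3 probes, with 6.40, 6.45, 6.34 and 6.45 in cytT248 control and 6.43, 6.45, 6.47 and 6.57 in cytT248 stress. TC243 read 10.42, 10.33, 10.41 and 10.46 in control, and cytTC221 read 10.61, 10.49, 10.50 and 10.34. The bound was 23.9-fold against TC243 and 23.4-fold against cytTC221 in control.

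Named genes of cytT248 included mbd111 (GRMZM2G025095), of the methyl-CpG-binding domain family, and rpl19 (GRMZM2G171444), a ribosomal protein gene. mbd111 held the most member probes of any gene, with each of its 5 probes that passed the filter a member and smallest differences from 1.48 to 1.74. rpl19 read 8.62, 9.01, 8.79 and 8.94 in cytT248 control against 7.19, 7.16, 7.12 and 7.23 in TC243 and 7.01, 7.06, 6.95 and 7.07 in cytTC221. Lower in cytT248 were RR10 (GRMZM2G126834), a response regulator of cytokinin signalling, and ABI14 (GRMZM2G106673). RR10 read 8.53, 8.57, 8.52 and 8.46 in cytT248 control, 9.67, 9.64, 9.59 and 9.62 in TC243 control and 9.93, 9.95, 9.99 and 10.06 in cytTC221 control.

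Different probes of a gene did not always tell the same story. Of the 239 genes, 22 had more than 1 member probe, and no gene had members for more than 1 cytoline or direction. A single probe passed the filter in 181 genes. In 14 of the 58 others every probe that passed was a member, and the remaining 44 genes had 71 further probes. At 39 of these (54.9%) the 4 differences carried the sign of the member probe, 18 did so with at least 0.4 in each, and at 12 the mean difference ran the opposite way. Over all probes that passed the filter, a given cytoline and direction had 4 differences of that sign at 12.4% of probes and of at least 0.4 at 0.403%. Probe names on this array begin with GT_Sp or GT_Xhy, a distinction that the sources used here do not explain, and 60 members (22.0%) carried the former, against 23.7% of the probes that passed the filter. Among the probes lower in TC243 it was 14 of 27.

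The members were then placed along the chromosomes through the gene order of the RefSeq annotation (assembly Zm-B73-REFERENCE-NAM-5.0), which is not the annotation the array was designed on and was used for names and neighbours only. Of the 239 member genes, 65 had an entry among its chromosomal protein-coding genes, as had 11420 of the 34257 genes that passed the filter. Of the 65, 24 (36.9%) had another member gene within 10 genes on either side, compared with 3.20% of the 11420. The neighbour was a marker of the same cytoline in 22 cases. Within 50 genes, a distance chosen after the data had been seen, the shares were 50.8% and 12.3%, and each of these 33 genes had a neighbour marking the same cytoline. These are counts of placed genes, and the 174 unplaced member genes enter neither.

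The longest stretch held TC243 markers. Over 129 protein-coding genes, of which 57 placed genes passed the filter, 11 were members, 6 higher and 5 lower in TC243. In gene order they were GRMZM2G179308, GRMZM2G173501, GRMZM2G121115 and GRMZM2G030606, all higher, then GRMZM2G137375, GRMZM2G095147, GRMZM2G028096, RSZ28 and GRMZM2G097015, all lower, and then GRMZM2G148387 and PIP2-4, again higher. As read by their member probes, higher and lower genes thus lay in blocks. Of the 3 other probes of GRMZM2G030606 that passed the filter, none kept the sign and 2 had an opposite mean. The other probe of GRMZM2G095147 differed by 0.06 without a common sign, and 1 of 2 other probes of GRMZM2G148387 had an opposite mean. The sign was kept at the 1 other probe of GRMZM2G179308, all 3 of GRMZM2G028096 and 5 of 6 of RSZ28. The 46 other genes of the stretch differed between TC243 and the other two by a median of 0.31, compared with 0.13 over all genes that passed the filter, and 19 of them (41.3%, against 10.4% of all genes) reached 0.4. The share was raised for the other cytolines too, at 28.3% for cytTC221 (against 14.8%) and 19.6% for cytT248 (against 3.34%). A further 4 members on the same chromosome, over 55 protein-coding genes, were GRMZM2G170008 and GRMZM2G169458, higher in TC243, with GRMZM2G066885, lower in cytT248, and rpl19, higher in cytT248. Of the 18 other genes there, 10 (55.6%) differed between cytT248 and the other two by at least 0.4, against 3.34% of all genes. For TC243 the share was 27.8% (against 10.4%) and for cytTC221, which had no member there, 33.3% (against 14.8%).

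Members of cytTC221 lay in other stretches. GRMZM2G131591, GRMZM5G822098, GRMZM5G821828 and GRMZM2G135866, all higher in cytTC221, were the 4 placed genes that passed the filter among 6 consecutive protein-coding genes. GRMZM2G131591 gave 8.56, 8.77, 8.82 and 8.74 in cytTC221 control and 10.38, 10.42, 10.51 and 10.40 in cytTC221 stress, and between 6.95 and 7.42 on the 16 other arrays. GRMZM2G135866 gave 9.58, 9.53, 9.52 and 9.79 in cytTC221 control and 11.40, 11.54, 11.45 and 11.33 in cytTC221 stress, and between 7.82 and 8.84 elsewhere. Another stretch, of 44 genes, held 6 members among 13 placed genes. Of these, GRMZM2G150209, mir2, GRMZM2G082322, GRMZM2G100462 and GRMZM2G304372 were lower in cytTC221 and GRMZM2G145583 was higher. Another stretch, of 47 genes, held GRMZM2G145972, GRMZM2G138809, orp1 and GRMZM2G142157, lower in cytTC221, and GRMZM2G308944, higher. These directions are those of the member probes. The 1 other probe of GRMZM2G145972 that passed the filter differed by 0.11 in the member's direction without a common sign. The 1 other probe of orp1 differed by 0.345, also without a common sign. In the stretch of 47 genes the 17 other genes had a median difference of 0.31 for cytTC221, and 6 of them (35.3%, against 14.8% of all genes) reached 0.4. For TC243 the share was 17.6% (against 10.4%) and for cytT248 5.88% (against 3.34%). In the stretch of 44 genes the 7 other genes had a median difference of 0.21 for cytTC221, against 0.16 over all genes, and 1 of them reached 0.4.

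Gene lists based on names matched few genes, since 72 of the 239 member genes had an entry in the annotation and 13 a descriptive name. None of the mitochondrial gene identifiers tabulated as markers by the study was a member, although 21 of the 24 were on the array and 15 passed the filter. Of all genes that passed, 0.698% were members. No pentatricopeptide repeat gene (6 passed), heat shock or chaperone gene (7 passed), transcription factor (69 passed) or mitochondrial transcription factor gene (1 passed) that the searched words recognised was a member. Transcription factors were searched only by the words transcription factor, MYB, WRKY, bZIP, zinc finger and homeobox. The symbols TAZ3, RR10 and ABI14 match none of these words, so the list says nothing about these members. The lists of disease resistance, kinase, cytochrome P450, glutathione transferase, glycosyltransferase, peroxidase, mobile element, ribosomal protein, photosynthesis and respiratory chain genes matched no name, since the annotation gives symbols and not descriptions (rpl19 is therefore in no list).

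The heat response, stress against control within a cytoline, was not used by the rule and was tested on all 64523 probes well above background in at least 1 group. After scaling, the median of all probes shifted with heat on the log2 scale by 0.19 (TC243), 0.08 (cytTC221) and 0.39 (cytT248), and under quantile normalization by -0.02, -0.05 and -0.01. The changes below include these shifts. In TC243, 103 of the 273 members rose (37.7%, against 44.7% of all probes) and 94 fell (34.4%, against 32.9%). In cytTC221, 78 rose (28.6%, against 39.4%) and 99 fell (36.3%, against 34.4%). In cytT248, 133 rose (48.7%, against 51.1%) and 87 fell (31.9%, against 29.3%), and under quantile normalization 74 rose (background 39.8%) and 112 fell (40.9%). In each cytoline the share of members that rose (limma, adjusted p below 0.01) was below that of all probes. This difference was not tested. Members had also passed the stricter filter of the rule, which kept 46210 probes and asked for signal in both treatments of a cytoline. A tested probe needed signal in 1 group only. The effect of this mismatch on the shares in this paragraph was not tested. With no filter on dim probes, when 133671 probes were tested, the order turned in TC243 (97 members rose, against 34.9% of all probes) and in cytTC221 (72, against 24.6%). Where a slide held both treatments of a cytoline, 193 of 197 called responses in TC243, 176 of 177 in cytTC221 and 219 of 220 in cytT248 had the same sign within each such slide. The responses were called on a fit that included the same arrays, which fixes most of these counts. No share over all called probes was counted, so nothing is read from them. The members rose in all 3 cytolines at 55 probes (20.1%, against 35.2%) and fell in all 3 at 64 (23.4%, against 25.6%), and 16 (5.86%, against 8.92%) passed the test in none. Under quantile normalization 40 rose in all 3 (14.7%, against 29.5%), 82 fell in all 3 (30.0%, against 33.7%) and 29 passed in none (10.6%, against 8.16%), so that the order of the last shares turned.

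Some markers were among the strongly heat-responsive genes. Besides dehydrin3, mir2 rose on the log2 scale by 5.41 (TC243), 2.96 (cytTC221) and 5.15 (cytT248), with an SE of 0.27 each. Its values went from 9.40, 9.41, 8.99 and 9.27 in TC243 control to 14.55, 14.51, 14.41 and 14.71 in stress and, in cytTC221, from 8.47, 8.40, 8.34 and 8.60 to 11.79, 9.95, 11.93 and 11.73. Replicate 2 of cytTC221 stress lay far below the other arrays of its group, and without it the rise in cytTC221 was 3.45. A further mir2 probe lay just outside the limit, at 0.785. rpl19 rose by 3.70, 4.43 and 4.11 (SE 0.10), and GRMZM2G145972 by 4.05, 3.68 and 4.36 (SE 0.09), in the same order of cytolines. The largest falls in the 3 cytolines were those of GRMZM2G456217, by 2.96, 4.31 and 3.84, of GRMZM2G115131, by 3.08, 2.90 and 2.44, and of GRMZM2G006290, by 2.38, 2.77 and 3.14. GRMZM2G006290, a gene lower in TC243, went there from 10.48, 10.57, 10.29 and 10.53 to 8.36, 8.01, 8.09 and 7.94 and in cytTC221 from 13.13, 13.26, 13.20 and 13.24 to 10.32, 10.55, 10.47 and 10.27.

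The size of the heat response differed between cytolines at 178 member probes (65.2%) by an F-test on the interaction, against 38.4% of all probes. At 39 members (14.3%, against 2.95%) the response was called a rise in 1 cytoline and a fall in another. Under quantile normalization the count was 26 (9.52%, against 2.96%). These calls were not limited to groups well above background. GRMZM2G342226, for example, fell in cytTC221 (log2 change -0.38) and was called as rising in cytT248 (0.61), where no array was well above background. A difference in response is the change of the cytoline difference from control to stress. The rule read the cytoline difference in control and in stress, so the shares are given as a description. Members and all probes were also filtered differently here, as for the heat response. Of the 113 member probes well above background on all 24 arrays, 59 passed the F-test, against 37.3% of the 37983 such probes on the array. The difference between the marking cytoline and the mean of the other two was larger in stress than in control at 150 of the 273 probes. The balance varied, from 46 of the 63 probes lower in cytTC221 to 19 of the 48 higher in TC243 and 44 of the 92 higher in cytTC221. No share over all probes was counted for this, so nothing is read from these counts. Over all probes that passed the filter, the median size of the difference between cytTC221 and TC243 was 0.1375 in control and 0.305 in stress. Between cytTC221 and cytT248 it was 0.1275 and 0.2525, and between TC243 and cytT248 0.1275 and 0.145.

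The member with the smallest adjusted p was GRMZM2G170008, which lies on the chromosome of the long TC243 stretch. It rose in TC243 from 11.99, 11.94, 11.92 and 11.96 to 14.70, 14.62, 14.63 and 14.73. In cytTC221 it went from 10.92, 11.01, 10.97 and 11.05 down to 9.52, 9.80, 9.73 and 9.73, and in cytT248 from 10.85, 10.94, 10.97 and 10.90 down to 10.22, 10.25, 10.26 and 10.33. The log2 changes were 2.83, -1.32 and -0.67 (SE 0.06), with limma adjusted p of 5.80e-22, 1.28e-15 and 5.19e-10, and the responses differed between cytolines (limma F-test, adjusted p = 2.76e-19). TC243 was 2.08 times cytTC221 in control and 37.1 times in stress. The 3 directions held under quantile normalization.

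GRMZM2G549927 and GRMZM2G700353, also higher in TC243, rose more in TC243 and cytT248 than in cytTC221. GRMZM2G549927 went from 8.42, 8.80, 8.37 and 8.75 to 11.78, 11.90, 11.85 and 11.84 in TC243, from 7.22, 6.94, 7.09 and 6.97 to 10.31, 10.06, 10.24 and 10.28 in cytT248, and from 7.34, 7.28, 7.23 and 7.14 to 7.71, 7.37, 7.55 and 7.75 in cytTC221. Its log2 changes were 3.38, 3.56 and 0.51 (SE 0.09) in that order. GRMZM2G700353 changed by 3.52 (TC243), 1.26 (cytTC221) and 4.34 (cytT248, where its control arrays were not well above background). The F-tests gave adjusted p of 4.89e-14 and 1.55e-13.

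mbd111 rose with heat in cytT248. It went from 8.57, 8.80, 8.45 and 8.41 to 10.46, 10.66, 10.67 and 10.34 in cytT248 (log2 change 2.07, SE 0.13, limma adjusted p = 2.45e-13). TC243 was not well above background in either treatment, and cytTC221 went from 6.90, 6.82, 6.78 and 6.76 to 6.37, 6.34, 6.40 and 6.12, the latter not well above background. The responses differed between cytolines (limma F-test, adjusted p = 4.85e-10). In stress, cytT248 was at least 18.1-fold above TC243 and at least 20.9-fold above cytTC221. GRMZM2G007835, with no TC243 array well above background, rose by 3.18 in cytTC221 and 2.52 in cytT248 (SE 0.09), so that the bound of the difference from cytTC221 went from 4.56-fold in control to 25.6-fold in stress at this probe. At the other probe of GRMZM2G007835 that passed the filter the mean difference ran the opposite way, with a value of -0.10 in the member's direction. GRMZM2G066885, with no cytT248 array well above background, rose by 2.17 in TC243 and 3.09 in cytTC221 (SE 0.26). GRMZM5G890836, lower in cytT248, fell by 1.76 in TC243 and 2.67 in cytTC221 (SE 0.13).

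In the run of 4 consecutive cytTC221 markers, GRMZM2G131591 and GRMZM2G135866 rose with heat more in cytTC221, where they are high, than elsewhere. The log2 changes of GRMZM2G131591 were 0.61 (TC243), 1.72 (cytTC221) and 0.73 (cytT248), with an SE of 0.10, and those of GRMZM2G135866 were 0.80, 1.85 and 0.81 (SE 0.10). The F-tests gave adjusted p of 1.36e-06 and 6.81e-07. GRMZM5G821828 in the same run fell by 2.53, 1.45 and 2.24 (SE 0.12), again with the difference between cytolines past the threshold (limma F-test, adjusted p = 7.10e-05).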

How the data were processed

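RNA of 24 seedling samples was hybridised to 24 single-colour Agilent arrays. The authors scanned the slides and deposited raw spot intensity files made with Agilent Feature Extraction 11 (11.5.1.1 per the file headers), and a series table of log2 values. Set against the spot files, the deposited log2 values follow the median signal, are quantile-normalized, carry no visible background subtraction and are not centred. The member rule used these values, spots averaged per probe. The heat response was tested on median signals after background correction (normexp, offset 50), log2 and subtraction of each array's 75th percentile over 46955 spots (those well above background throughout). Spots with outlier flags (0 to 45 per array) were set missing, and no member lost an array. limma 3.58.1 in R 4.3.3 fitted 6 groups on 64523 probes, with Benjamini-Hochberg adjusted p below 0.01. The fit was tested on simulated data. Array number limits the precision.

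The members, lists and tests were chosen with earlier results of these data known. Gene identifiers are those of the array design, an older annotation, and 18817 of 107027 matched the RefSeq table. The genes named are, per cytoline and direction, the 4 with the largest smallest difference and the 4 such with a descriptive name, those with the 3 largest rises and falls with heat, the 3 smallest adjusted p for a difference in response, the 5 with most member probes, the 3 longest runs of neighbours and members of the organelle lists (none). Other members of the neighbour stretches were named after their values were seen. Source names of 2 cytTC221 control arrays repeat the number of another array, and the title numbers were used. No sequence was available here to print.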

Additional observations from a re-analysis of the deposited data

Results flagged for a closer look

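In 8 named genes the heat responses of the 3 cytolines passed the F-test and spread over at least 2 log2 units. The spread was 4.15 for GRMZM2G170008, 3.08 for GRMZM2G700353, 3.05 for GRMZM2G549927, 2.47 for GRMZM2G007835, 2.45 for mir2 (GRMZM2G150256), 2.45 for mbd111 (GRMZM2G025095), 2.34 for GRMZM5G890836 and 2.30 for GRMZM2G066885. In GRMZM2G700353, GRMZM2G007835, mbd111, GRMZM5G890836 and GRMZM2G066885, no array of at least 1 group behind the spread was well above background.

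Among the 48 named genes, 18 of 288 groups of 4 arrays held an array far from the others of its group, where chance flags about 1 in 20. Replicate 2 of cytTC221 stress accounted for 5 of them. It read 9.95 for mir2 (others 11.73 to 11.93), 10.68 for GRMZM2G342226, 6.69 for GRMZM2G126858, 7.25 for orp1 and 7.56 for GRMZM2G700353. Over all probes that passed the filter, the median deviation of this array from the other arrays of its group was 0.11, in a range of 0.08 to 0.12 over the 24 arrays.

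Further outlying arrays in TC243 stress were at 7.75 for RSZ28, 6.55 for GRMZM2G560158, 9.57 for GRMZM5G890836, 9.21 for RR10 and 11.73 for GRMZM2G700353. In TC243 control they were at 6.43 for GRMZM2G078492, 8.55 for GRMZM2G700353, 7.30 for GRMZM2G131591 and 7.82 for GRMZM2G135866. In cytTC221 stress GRMZM2G097015 had an array at 8.76. In cytT248 they were at 9.85 (GRMZM2G088511, stress), 8.19 (GRMZM2G560158, control) and 6.49 (GRMZM5G822098, stress).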

How the results depend on the processing

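With the limit of 0.8 at 0.6 or 1.0, 477 or 189 probes met the rule. Background-corrected values gave 293 members (250 shared with the 273) or, quantile-normalized, 295 (261 shared), and the scanner software's processed signal gave 627 (265 shared). Requiring all 24 arrays well above background left 113, dropping the filter gave 279, and leaving out each array in turn gave 270 to 278. The number of members rising with heat in cytT248 (133) was 74 under quantile normalization, 81 with the 75th percentile over all spots, 68 with the processed signal and 74 with the deposited values, while the share of all probes that rose there (51.1%) was 39.8%, 40.1%, 39.4% and 39.5%. With probes well above background on all 24 arrays only, fewer members were tested (113), of which 44, 39 and 41 rose (of all probes 42.6%, 39.5% and 45.7%) and 52, 51 and 51 fell (38.1%, 39.1% and 36.7%) in TC243, cytTC221 and cytT248, and 59 differed in response (38.0%). Leaving out each array in turn gave 167 to 184 members with a difference in response and 123 to 136 rising in cytT248. With slide as a block 161 differed in response. Same-numbered arrays did not deviate together (correlations -0.09 to 0.04), so numbers do not pair them. With a replicate block, 100, 77 and 133 members rose, 92, 97 and 88 fell, and 172 differed in response. The smallest difference of the 48 named genes kept its sign under every alternative, which the limit of 0.8 made likely in advance. Its size was counted as moved in 113 comparisons and as the same in 127. Dim probes carry bounds only.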
